A study of Mus musculus with 16 samples.

Results

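The cytokines and receptors described here are 10 genes of the interleukin-6 (IL-6) family and of the colony stimulating factors: Il6, Il11, Lif, Osm, Csf1, Csf2, Csf3, Csf1r, Il6ra and Il6st. They were chosen by name, as all probes other than controls whose gene name in the array files was 1 of these symbols, which gave 14 probes in 33 spots per array for 10 of the 22372 genes with a RefSeq symbol on the array. RNA came from RAW264.7, a mouse tumour line with macrophage features, so that all samples are of 1 cell line. Cells were kept in low serum and incubated in 4 ways with 4 arrays each, 16 in all. The DMSO cultures had the solvent alone for 120 min, and the cordycepin cultures had 20 μM cordycepin, an adenosine analogue that inhibits polyadenylation, in the same solvent for the same time. In the LPS+DMSO and LPS+cordycepin cultures, 1 μg/ml of lipopolysaccharide (LPS), a bacterial cell wall component that macrophages sense through Toll-like receptors, was present for the last 60 min, after 60 min in DMSO or cordycepin. The 4 cultures of a replicate number were wells of the same plate, and different numbers were collected on different days.

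Of the IL-6 family cytokines, IL-6, IL-11, leukaemia inhibitory factor (LIF) and oncostatin M signal through receptors that contain gp130. This signalling chain, encoded by Il6st, activates JAK kinases and STAT3. IL-6 and IL-11 each bind a private receptor chain and then gp130. Macrophages are a major source of IL-6 and oncostatin M once LPS is sensed, and both are prominent in inflamed joints. The colony stimulating factors act on myeloid cells through separate receptors: M-CSF (Csf1) through the tyrosine kinase encoded by Csf1r, which maintains macrophages, GM-CSF (Csf2) through a receptor with the common beta chain, and G-CSF (Csf3) through the granulocyte receptor Csf3r. The comparisons ask how LPS changed these genes, what cordycepin did to them before and after LPS, and whether the LPS response differed in cordycepin.

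Between 37.1% and 51.2% of the 59305 spots per array were well above background by the scanner software's own test, no spot was saturated, and the number of arrays limits the precision of each change. The share followed the slide, with 37.1% to 43.9% on that of replicates 1 and 2 and 45.8% to 51.2% on that of replicates 3 and 4. Levels are log2 array signals after scaling, on which a step of 1 is a 2-fold difference, and levels of different probes cannot be set against each other. Signals below about 4.41 to 6.32, the dimmest probe well above background on the respective array, have no order. The macrophage label held, with 9 of 10 macrophage markers well above background on all 16 arrays, while 0 of 8 fibroblast and 0 of 5 epithelial markers were so on all arrays. Of the markers of other blood and vessel cells, 2 of 5 T cell, 0 of 5 B cell, 2 of 5 endothelial, 2 of 6 granulocyte and 1 of 4 dendritic cell markers were well above background on all 16 arrays. In such bulk samples, fewer cells of a type and less RNA per cell cannot be told apart.

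DMSO replicate 2 stood apart from the other DMSO arrays. It differed by 2-fold or more from the mean of the other 3 in 944 of 15877 genes, against 65 to 643 for the other 15 arrays. Among the members, Il6 was 6.59 on this array against 2.38 to 3.94 on the other DMSO arrays, Csf1 was 12.12 against 8.80 to 10.10, and Osm was 7.21 against 6.25 to 6.49. The receptor genes lay the other way, with Il6ra at 12.28 against 13.12 to 13.32 and Csf1r at 16.09 against 16.83 to 17.03. A set of 294 genes that LPS raised in cordycepin was taken from a fit to the 8 cordycepin and LPS+cordycepin arrays alone. Its median level was 7.23 on this array, 6.59 to 6.87 on the other DMSO arrays and 8.80 to 8.97 on the LPS+DMSO arrays. On the cordycepin arrays without LPS, which had a part in choosing the set, the median was 7.32 to 7.55, above that of DMSO replicate 2. The label was kept, and results that rest on this array are given with and without it.

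RefSeq promoters on GRCm38.p6 were at hand for 7 of the 10 members, in 8 promoters, and the 250 bases before the start site are shown for 3 of them, Il6 and Csf1, which LPS raised, and Il11, which cordycepin raised, because their changes carry the results below. Capitals mark matches, on either strand, to the κB consensus bound by NF-κB, to the AP-1 motif TGANTCA, which is its own reverse complement, and to the C/EBP motif TTGCNNAA. No matches of different motifs overlapped. The sequences run 5′ to 3′ on the strand of the gene, at chr5:30012864-30013113 (plus strand) for Il6, chr3:107760470-107760719 (minus) for Csf1, and chr7:4778142-4778391 and chr7:4782858-4783107 (both minus) for the downstream and upstream promoters of Il11.
Il6: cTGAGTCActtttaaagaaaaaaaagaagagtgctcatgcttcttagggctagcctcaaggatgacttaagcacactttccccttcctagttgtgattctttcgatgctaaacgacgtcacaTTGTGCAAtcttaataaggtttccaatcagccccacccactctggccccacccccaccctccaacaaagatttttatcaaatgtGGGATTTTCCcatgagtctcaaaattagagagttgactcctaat
Csf1: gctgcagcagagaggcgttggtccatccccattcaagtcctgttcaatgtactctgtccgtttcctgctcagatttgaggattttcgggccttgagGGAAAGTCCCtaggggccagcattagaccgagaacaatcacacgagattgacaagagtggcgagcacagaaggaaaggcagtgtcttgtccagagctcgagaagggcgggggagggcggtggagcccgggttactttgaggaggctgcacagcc
Il11 downstream: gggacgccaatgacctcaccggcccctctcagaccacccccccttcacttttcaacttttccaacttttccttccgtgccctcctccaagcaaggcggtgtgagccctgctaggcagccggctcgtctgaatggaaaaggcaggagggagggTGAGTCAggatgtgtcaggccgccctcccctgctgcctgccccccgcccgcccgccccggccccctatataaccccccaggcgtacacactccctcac
Il11 upstream: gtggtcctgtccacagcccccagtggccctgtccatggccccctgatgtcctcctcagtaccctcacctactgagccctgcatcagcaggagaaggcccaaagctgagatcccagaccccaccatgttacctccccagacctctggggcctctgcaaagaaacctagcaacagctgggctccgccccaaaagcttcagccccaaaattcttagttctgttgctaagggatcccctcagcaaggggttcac
The κB consensus was matched at positions -44 to -35 of Il6 and -154 to -145 of Csf1, counted from the start site, and also in the promoter of Lif. It occurred in 7.3% of all 32851 promoters over the same 250 bases. AP-1 was matched in Il6, in the downstream promoter of Il11 and in Lif (6.7% of all promoters), and C/EBP in Il6 and Csf2 (9.6%). These are matches of letters, and binding was not measured.

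Testing required a signal well above background on the 4 arrays of some condition, which 8 of the 10 members met and Lif and Csf2 did not. The call required an adjusted p under 0.05 (limma, Benjamini-Hochberg over 15877 genes) and a change of at least 2-fold. This main fit had no block for the replicate number, so it did not use the pairing of the cultures. With that block, Il6 with cordycepin in LPS (adjusted p = 0.0106, limma) and Csf1 with LPS in cordycepin (adjusted p = 0.0239, limma) were called as well. LPS+DMSO against DMSO called 4 of the 8 members raised (Il6, Osm, Csf1 and Csf3), where 2.09% of all genes tested were raised, and 0 lowered, where 2.49% were. LPS+cordycepin against LPS+DMSO called Il11 raised (background 5.93%) and Osm and Csf3 lowered (background 1.52%). Cordycepin against DMSO called Il11 alone (4.49% raised, 1.06% lowered). LPS+cordycepin against cordycepin called Il11, Osm and Csf3 raised (1.69% raised, 1.22% lowered). A member high in 1 condition passed the filter through it, as Il6 and Csf3 did through LPS+DMSO alone. Neither the share called nor the median change among those tested is therefore independent of the filter. The median log2 change over the 8 members was 1.30 with LPS, where it was -0.04 over all genes, and -0.91 with cordycepin in LPS, where it was 0.03 over all genes.

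**Figure D1:**
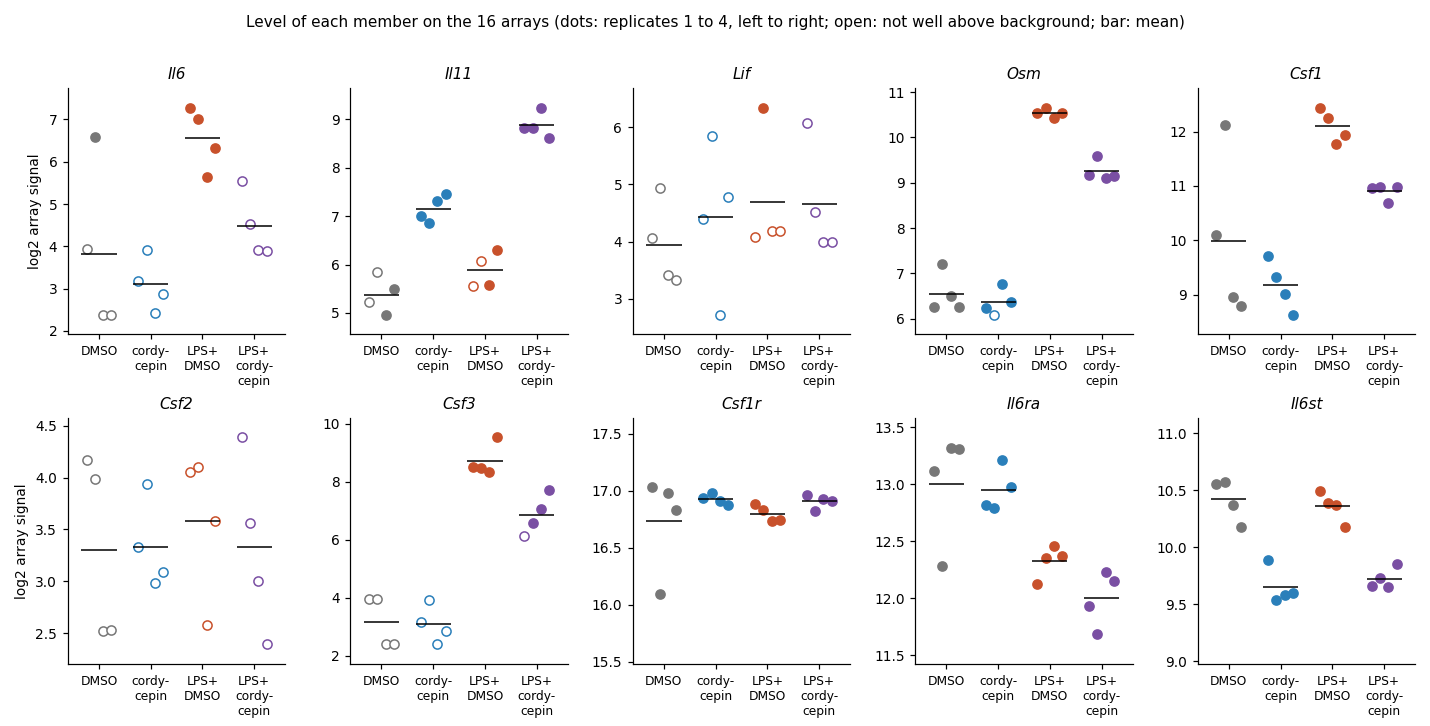
Log2 array signal (vertical axis, its own range in each panel) of the 10 members on the 16 arrays, by condition (horizontal axis); each dot is 1 array, open where the probe was not well above background, and each bar is the mean of 4. Il11 is highest on the 4 LPS+cordycepin arrays (8.62 to 9.24), while Osm and Csf3 are highest on the 4 LPS+DMSO arrays; the high DMSO dot of Il6 and Csf1 is replicate 2.

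Il6 encodes IL-6, the fever and acute-phase cytokine, and its probe lies at chr5:30346367-30346426 on mm9, the build of the array files. Its levels in DMSO replicates 1 to 4 were 3.94, 6.59, 2.38 and 2.38, and only replicate 2 was well above background. In LPS+DMSO replicates 1, 3 and 4 they were 7.28, 5.64 and 6.33, with replicate 2 between replicates 1 and 4, and all 4 arrays were well above background. DMSO replicate 2 lay within the range of the LPS+DMSO arrays. LPS raised Il6 by a fitted 2.74 ± 0.74 on the log2 scale (SE, n = 4 arrays per condition, adjusted p = 0.0201, limma), against a DMSO group in which 1 of 4 arrays was well above background. Without that array, DMSO replicate 2, the level was at least 2.90-fold higher with LPS, a bound set by the dimmest probe well above background on each DMSO array left (adjusted p = 0.000183, limma). With normexp background correction the rise was 0.83 and was not called (adjusted p = 0.311, limma). The call was lost in 11 of 34 alternative fits (adjusted p = 0.0557 to 0.311 by limma and 0.192 by the methods' t-test). Among them were those that left out replicate 1, 3 or 4 or let each pair of conditions set its own spread. It was also lost with no filter on dim probes (adjusted p = 0.0718, limma), and Il6 had passed that filter through LPS+DMSO alone.

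In LPS+cordycepin, Il6 was 5.54, 4.53, 3.91 and 3.90, on no array well above background, and in cordycepin alone it was 3.19, 3.92, 2.42 and 2.87, again on none. With LPS, the level was at least 2.29-fold lower in cordycepin than in DMSO, a bound set in the same way on the LPS+cordycepin arrays. The fitted difference, which rests on signals not well above background, missed the threshold (adjusted p = 0.0649, limma). It passed with the replicate number as a block (adjusted p = 0.0106, limma) and without DMSO replicate 2 (adjusted p = 0.005, limma), an array that is in neither group and enters only through the shared estimate of the spread. Within slides the level was at least 2.29-fold lower for replicates 1 and 2 and at least 2.28-fold lower for replicates 3 and 4.

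Osm encodes oncostatin M, made mainly by activated macrophages, T cells and neutrophils, and its probe lies at chr11:4140146-4140205. Levels in DMSO were 6.25, 7.21, 6.49 and 6.25, in cordycepin 6.23, 6.08, 6.77 and 6.37, in LPS+DMSO 10.55, 10.66, 10.44 and 10.55, and in LPS+cordycepin 9.18, 9.60, 9.10 and 9.16. The 4 LPS+DMSO arrays lay close together and above all others, and the 4 LPS+cordycepin arrays lay between them and the arrays without LPS. Over all genes, LPS+DMSO and DMSO were apart in 18.9%, and LPS+cordycepin and LPS+DMSO in 22.9%. LPS raised Osm by 4.00 ± 0.20 (adjusted p = 1.38e-09, limma). In LPS+cordycepin it was 2.45-fold lower than in LPS+DMSO (log2 change -1.29 ± 0.20, adjusted p = 0.000159, limma), and it was still above cordycepin alone by 2.90 ± 0.20 (adjusted p = 9.44e-08, limma). All 3 calls held in all 35 alternative fits. Cordycepin without LPS left a difference of -0.19 (95% interval -0.61 to 0.23), which was not called.

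Il11 moved the other way. It encodes IL-11, a stromal cytokine that signals through Il11ra1 and gp130, and its probe lies at chr7:4724847-4724906 on the minus strand. Levels were 5.22, 5.85, 4.96 and 5.49 in DMSO and 7.01, 6.85, 7.31 and 7.45 in cordycepin. The groups did not overlap, as for 21.2% of all genes in this comparison. With LPS the levels were 5.56, 6.07, 5.58 and 6.31 in DMSO and 8.82, 8.82, 9.24 and 8.62 in cordycepin, the highest 4 values of the 16. The groups with LPS were apart in 22.9% of all genes. Il11 was well above background on 2 of 4 arrays in each condition without cordycepin, replicates 3 and 4, and on 4 of 4 in each condition with it.
Cordycepin raised Il11 by 1.77 ± 0.21 without LPS (3.42-fold, adjusted p = 2.26e-05, limma) and by 3.00 ± 0.21 with LPS (7.97-fold, adjusted p = 8e-08, limma). In cordycepin, LPS raised it by 1.72 ± 0.21 (adjusted p = 5.98e-05, limma). In DMSO the LPS difference was 0.50 ± 0.21 (adjusted p = 0.15, limma). The rise with cordycepin in LPS was 3.66 and 2.31 in replicates 3 and 4, whose LPS+DMSO arrays were well above background. Within slides it was 3.01 for replicates 1 and 2, whose LPS+DMSO arrays were not, and 2.98 for replicates 3 and 4. With normexp background correction the rise without LPS was 0.80 (adjusted p = 0.0456, limma), short of 2-fold.

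Lif, which encodes leukaemia inhibitory factor, has its probe at chr11:4172032-4172091, 32 kb from that of Osm. It was well above background on 1 of the 16 arrays, LPS+DMSO replicate 2 (6.34), and the other levels were 2.72 to 6.08. No fold can be given for it, and no difference of Lif was detectable at this signal.

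Csf1 encodes M-CSF, the growth and survival factor of macrophages, and its brightest probe, with 10 spots per array, lies at chr3:107544333-107544392 on the minus strand. Levels were 10.10, 12.12, 8.95 and 8.80 in DMSO, 9.72, 9.33, 9.02 and 8.63 in cordycepin, 12.44, 12.25, 11.78 and 11.93 in LPS+DMSO, and 10.96, 10.99, 10.69 and 10.99 in LPS+cordycepin. DMSO replicate 2 lay among the LPS+DMSO values, and the other 3 DMSO arrays lay below all of them. LPS raised Csf1 by 2.11 ± 0.52 (adjusted p = 0.0115, limma), and by 2.82 ± 0.30 without DMSO replicate 2 (adjusted p = 1.21e-05, limma). The call was lost in 6 of 36 alternative fits, those without replicate 1, 3 or 4 (adjusted p = 0.0897, 0.102 and 0.0961, limma), of only the groups compared (adjusted p = 0.07, limma), by the methods' t-test (adjusted p = 0.176) and with the probes of the gene averaged. By replicate the LPS difference was 2.34, 0.13, 2.83 and 3.13. Within the slide of replicates 1 and 2 it was 1.23, and within the other 2.98.
All 4 LPS+cordycepin arrays were below all 4 LPS+DMSO arrays, and 22.9% of all genes had these groups apart. The difference was -1.19 ± 0.52 and was not called (adjusted p = 0.145, limma). Without DMSO replicate 2 the same difference had an SE of 0.27 and was called (adjusted p = 0.00514, limma). Against cordycepin alone, LPS+cordycepin was higher by 1.73 ± 0.52 (adjusted p = 0.056, limma), which passed with the replicate block (adjusted p = 0.0239, limma) and without DMSO replicate 2 (adjusted p = 0.000656, limma).

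The other 2 probes of Csf1, at chr3:107548521-107548580 and chr3:107548550-107548609, overlap by 31 of their 60 bases, lie 4 kb from the first and are assigned to another transcript in the array files. Their LPS differences were 0.01 ± 0.54 (adjusted p = 0.993, limma) and -0.10 ± 0.54 (adjusted p = 0.953, limma), where the first probe gave 2.11. Without DMSO replicate 2 they were 0.70 ± 0.36 (adjusted p = 0.247, limma) and 0.59 ± 0.37 (adjusted p = 0.356, limma), not called. In that fit cordycepin in LPS gave -0.79 ± 0.33 (adjusted p = 0.117, limma) and -0.38 ± 0.34 (adjusted p = 0.506, limma), not called either. In replicates 1, 3 and 4 both probes were higher with LPS, by 0.45 to 0.85 and by 0.40 to 0.54, and in replicate 2 the LPS differences were -2.03 and -1.83. DMSO replicate 1 was not well above background at either probe. In cordycepin each of the 2 probes was well above background on 2 of 4 arrays, and in LPS+cordycepin they were so on 2 and 3 of 4. Their condition means were 5.29 to 6.27, within 4.41 to 6.32, the range of the dimmest probes well above background. Their changes may thus rest in part on signals near background. The high DMSO replicate 2 was seen at all 3 probes, with 8.30 and 8.18 at the dimmer pair against 5.32 to 5.96 and 5.18 to 5.93 on the other DMSO arrays. When the probes of the gene were averaged, the LPS rise was 0.68 ± 0.52 and was not called (adjusted p = 0.481, limma). The rise of Csf1 with LPS, and its fall with cordycepin in LPS without DMSO replicate 2, therefore stand for its brightest probe.

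**Figure D2:**
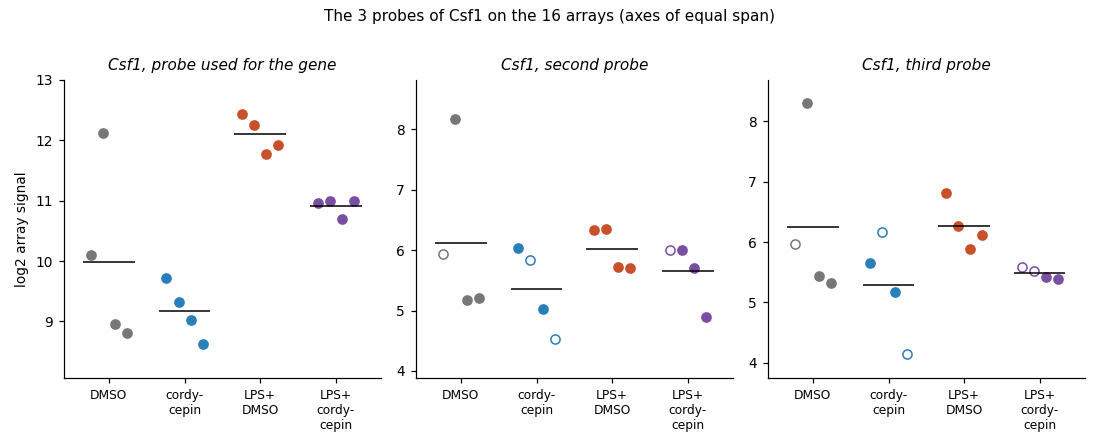
Log2 array signal (vertical axes of equal span) of the 3 probes of Csf1 on the 16 arrays, by condition; open dots were not well above background and bars are means of 4. With DMSO replicate 2 set aside, the first probe rises from 8.80 to 10.10 in DMSO to 11.78 to 12.44 in LPS+DMSO while the DMSO and LPS+DMSO ranges of the other probes overlap.

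Csf3 encodes G-CSF, which drives neutrophil production, and its probe lies at chr11:98564614-98564673. Levels were 3.94, 3.95, 2.39 and 2.39 in DMSO and 3.17, 3.93, 2.40 and 2.86 in cordycepin, on no array well above background. They were 8.51, 8.46, 8.34 and 9.53 in LPS+DMSO, and 6.12, 6.58, 7.05 and 7.70 in LPS+cordycepin, where 3 of 4 arrays were well above background. Csf3 was at least 10.5-fold higher in LPS+DMSO than in DMSO (adjusted p = 3.86e-07, limma) and at least 3.05-fold higher in LPS+cordycepin than in cordycepin (adjusted p = 3.77e-05, limma). The second bound takes LPS+cordycepin replicate 1, which was not well above background, at its measured signal. Cordycepin lowered it in LPS by 3.60-fold (log2 change -1.85 ± 0.45, adjusted p = 0.00779, limma), with a lower value in 4 of 4 replicates. The groups did not overlap, as for 22.9% of all genes in this comparison. The call of this fall was kept in 33 of 34 alternative fits and lost without replicate 1 (-1.67, adjusted p = 0.0571, limma). The rise with LPS in cordycepin was lost with normexp background correction (1.25, adjusted p = 0.0562, limma).

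Csf2, which encodes GM-CSF, has its probe at chr11:54060772-54060799 on the minus strand, with 10 spots per array. Only 9 of its 160 spot readings were well above background, never more than 1 on an array, so it was well above background on no array. Levels were 2.52 to 4.17 in DMSO, 2.98 to 3.94 in cordycepin, 2.58 to 4.10 in LPS+DMSO and 2.39 to 4.39 in LPS+cordycepin. The 4 ranges overlap, and no difference of Csf2 was detectable at this signal.

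In the fit to all 16 arrays, no receptor among the members was called in any comparison. Csf1r, on chromosome 18, encodes the M-CSF receptor that marks macrophages and their precursors, and at its brightest probe it was 16.09 to 17.03 in DMSO, 16.87 to 16.98 in cordycepin, 16.73 to 16.88 in LPS+DMSO and 16.82 to 16.96 in LPS+cordycepin. The 95% interval of the LPS difference was -0.27 to 0.39, which excludes a 2-fold change in either direction. The other 2 probes of Csf1r were not called either. In cordycepin against DMSO both were higher on all cordycepin arrays than on any DMSO array, by 0.58 ± 0.19 (adjusted p = 0.0519, limma) and 0.44 ± 0.17 (adjusted p = 0.0973, limma), a separation that 21.2% of all genes showed in this comparison. Without DMSO replicate 2 the differences were 0.37 ± 0.15 (adjusted p = 0.126, limma) and 0.27 ± 0.14 (adjusted p = 0.252, limma).

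Il6ra encodes the private receptor chain of IL-6, and its probe lies at chr3:89674054-89674113 on the minus strand. Levels were 13.12, 12.28, 13.32 and 13.31 in DMSO, 12.82, 12.79, 13.21 and 12.98 in cordycepin, 12.13, 12.35, 12.46 and 12.37 in LPS+DMSO, and 11.93, 11.69, 12.23 and 12.15 in LPS+cordycepin. With LPS it was lower in 3 of 4 replicates in DMSO and in 4 of 4 in cordycepin. The change was -0.68 ± 0.20 in DMSO (adjusted p = 0.0309, limma) and -0.95 ± 0.20 in cordycepin (adjusted p = 0.00588, limma), past the p threshold and short of 2-fold. The fall in cordycepin passed 2-fold and was called without cordycepin replicate 2 (-1.01, adjusted p = 0.0112, limma), without LPS+cordycepin replicate 3 (-1.03, adjusted p = 0.00789, limma) and, with the smallest such change, without LPS+cordycepin replicate 4 (adjusted p = 0.0106, limma). Without DMSO replicate 2, the change in DMSO was -0.92 ± 0.14 (adjusted p = 0.00029, limma). Between LPS+cordycepin and LPS+DMSO the difference was -0.33 (95% interval -0.75 to 0.10).

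Il6st encodes gp130, the chain that the receptors of IL-6, IL-11, LIF and oncostatin M share, and its probe lies at chr13:113296586-113296645. It was lower with cordycepin, whether or not LPS was present. Levels were 10.55, 10.57, 10.37 and 10.18 in DMSO and 10.49, 10.39, 10.37 and 10.18 in LPS+DMSO, and 9.89, 9.54, 9.58 and 9.60 in cordycepin and 9.66, 9.73, 9.65 and 9.85 in LPS+cordycepin. Every array with cordycepin was below every array without it. Over all genes, the cordycepin and DMSO groups were apart in 21.2%, and the LPS+cordycepin and LPS+DMSO groups in 22.9%. The change with cordycepin was -0.76 ± 0.11 without LPS (adjusted p = 0.000111, limma) and -0.63 ± 0.11 with LPS (adjusted p = 0.000479, limma), again short of 2-fold. The LPS differences were -0.06 (95% interval -0.29 to 0.17) and 0.07 (-0.16 to 0.30).

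**Figure D3:**
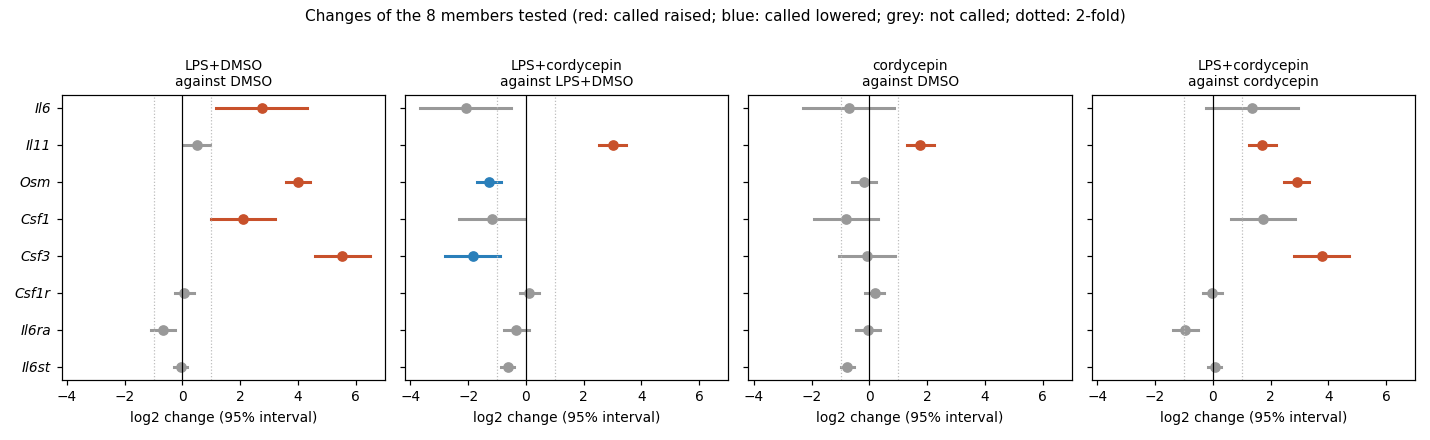
Fitted log2 change (horizontal axis) with its 95% interval for the 8 members tested in the 4 comparisons between conditions; red dots were called raised, blue dots were called lowered and grey dots were not called, and dotted lines mark 2-fold. Il11 lies to the right in the 3 comparisons with cordycepin, Osm and Csf3 change side between LPS and cordycepin in LPS, and the dots of the receptors lie within the dotted lines; changes of Il6 and Csf3 involve conditions not well above background.

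Whether the LPS response itself differed in cordycepin was tested as a difference of differences. It called 0 of the 8 members (limma), where 0.195% of all genes were called higher and 0.170% lower. At an unadjusted p under 0.05 there were 3 members, against 7.7% of all genes. The response of Il11 was larger in cordycepin by 1.22 ± 0.30 (adjusted p = 0.108, limma), and that of Osm was smaller by a difference of -1.10 ± 0.28 (adjusted p = 0.115, limma). The other was Csf3 (adjusted p = 0.378, limma), which was not well above background on any array without LPS, so that no size can be given. Without DMSO replicate 2, Osm was called (-1.32 ± 0.21, adjusted p = 0.0106, limma).

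Other genes of the same pathways were taken from lists by function. Those tested had passed the same filter, so their shares and medians carry the same limit. Of 14 further ligands and receptors of the IL-6 family, 4 were tested. Cordycepin raised 2 of them without LPS and 1 with LPS, beside 4.49% and 5.93% of all genes. Cntf, which encodes ciliary neurotrophic factor, another gp130 ligand, had a mean level of 8.85 in DMSO and 11.26 in cordycepin, and with LPS the means were 9.36 and 11.27. It rose with cordycepin by 2.41 ± 0.12 without LPS (adjusted p = 3.39e-09, limma) and by 1.91 ± 0.12 with LPS (adjusted p = 1.47e-08, limma). Il11ra1, the private receptor of IL-11, rose by 1.20 ± 0.21 without LPS (adjusted p = 0.000711, limma), and its difference with LPS was 0.92 ± 0.21. The median change of the 4 genes with cordycepin was 0.69, beside 0.04 over all genes. Of 13 further ligands and receptors of the colony stimulating factors, 6 were tested and 0 were called in any comparison, among them Csf3r, which was 15.86 in DMSO and 15.69 in LPS+DMSO, and both chains of the GM-CSF receptor.

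Of 22 genes of JAK-STAT signalling below these receptors, 16 were tested. LPS+DMSO against DMSO called 3 raised and 0 lowered, beside 2.09% and 2.49% of all genes. Pim1, a kinase induced by STAT factors, rose by 3.83 ± 0.15 (adjusted p = 9.67e-11, limma). Socs3, the feedback inhibitor of gp130 signalling, rose by 2.94 ± 0.23 (adjusted p = 3e-07, limma). Cish, a feedback inhibitor of STAT5 signalling, was at least 2.68-fold higher (adjusted p = 1.32e-05, limma). LPS raised the same 3 genes in cordycepin, Pim1 by 3.64 and Socs3 by 2.45. Cish was well above background on 0 of 4 cordycepin and 2 of 4 LPS+cordycepin arrays, so no firm bound on its fold can be given. LPS in cordycepin also raised Socs1, another inhibitor of JAK kinases, by 1.47 (well above background on 3 of 4 cordycepin arrays). Socs1 was lower in cordycepin than in DMSO (log2 change -1.58 ± 0.27, adjusted p = 0.00063, limma). Over all genes, LPS raised 1.69% in cordycepin, and cordycepin without LPS lowered 1.06%. In LPS+cordycepin against LPS+DMSO 0 of the 16 were called (limma), beside 5.93% of all genes raised and 1.52% lowered. The medians of the list were 0.05 and 0.03, beside -0.04 and 0.03 over all genes.

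Of 24 factors known to act on the transcription or mRNA decay of Il6, Csf2, Csf3 or Csf1r, 23 were tested. LPS raised 7 of them and lowered 0, beside 2.09% and 2.49% of all genes. By fitted change the 3 largest rises were those of Zfp36, which encodes the decay factor tristetraprolin (5.85 ± 0.31), Nfkbiz, which encodes the NF-κB cofactor IκBζ (5.21 ± 0.22), and Zc3h12a, which encodes the ribonuclease Regnase-1 (4.70 ± 0.39). Zfp36 and Zc3h12a were well above background on 2 of 4 DMSO arrays, so these changes and their order rest in part on signals below it. Cordycepin lowered 4 of the 23 in LPS and raised 0, beside 1.52% and 5.93% of all genes. Those lowered were Arid5a, which encodes an RNA-binding protein that stabilises Il6 mRNA (-1.89 ± 0.18, adjusted p = 1.8e-06, limma), Cebpd (-1.51 ± 0.11, adjusted p = 6.67e-08, limma), Runx1 (-1.37 ± 0.16, adjusted p = 7.93e-06, limma) and Nfkbiz (-1.05 ± 0.22, adjusted p = 0.00252, limma). Without LPS, cordycepin lowered Arid5a (-1.51) and Runx1 (-1.14), beside 1.06% of all genes. In cordycepin, LPS raised 5 of the 23, beside 1.69% of all genes. They were Zfp36 (5.76), Fos (4.53), Nfkbiz (4.03), Zc3h12a (2.73) and Jun (1.95). Zfp36 was well above background on 1 of 4 cordycepin arrays and Fos and Zc3h12a on 3. The median of the list was 0.61 with LPS and -0.28 with cordycepin in LPS, beside -0.04 and 0.03 over all genes. Of 5 genes for shedding of receptors and ligands, 4 were tested and cordycepin raised 1. Over all genes it raised 4.49% without LPS and 5.93% with LPS. The gene was Rhbdf1, a partner of the sheddase Adam17 (1.95 ± 0.40 without LPS, adjusted p = 0.00244, and 2.46 ± 0.40 with LPS, adjusted p = 0.000249, limma). Rhbdf1 was well above background on 2 of 4 arrays in each condition without cordycepin. Adam17 and Adam10 were not called in any comparison.

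**Figure D4:**
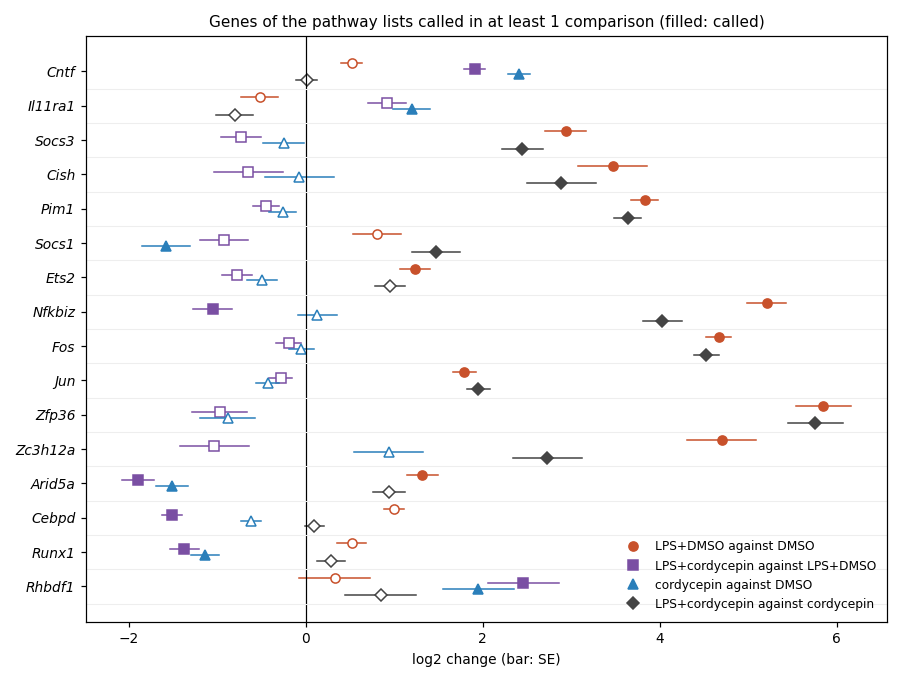
Log2 change (horizontal axis, bars show the SE) in the 4 comparisons between conditions of the 16 genes of the pathway lists that were called at least once; filled symbols were called. Fos, Jun, Zfp36, Pim1 and Socs3 rise with LPS both in DMSO (red circles) and in cordycepin (black diamonds), whereas Cntf and Rhbdf1 are filled where cordycepin is compared with DMSO.

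The genes whose levels followed each member most closely were found among 11652 other genes with a symbol, by the root mean square distance of their 16 array values, each gene set to its own mean, on the log2 scale. Osm was nearest to Btg2, an antiproliferative early response gene, and Ccl2, which encodes a monocyte chemoattractant (0.32 each, with a spread of Osm itself of 1.80). Csf1 was nearest to Cd40 (0.25) and Ifit1 (0.29, with a spread of 1.30), and Csf3 to Acod1, the itaconate-producing enzyme (0.54), and Traf1 (0.59, with a spread of 2.49). Il6 was nearest to Rsad2 (0.55) and to Csf1 (0.59, with a spread of 1.64), and the high DMSO replicate 2 is part of both member profiles. The distances of Csf3 and Il6 rest in large part on signals not well above background. In DMSO, cordycepin, LPS+DMSO and LPS+cordycepin, Il6 was well above background on 1, 0, 4 and 0 arrays. For Csf3 the numbers were 0, 0, 4 and 3. Il11 was nearest to Gm11517 (0.36) and C030010L15Rik (0.40, with a spread of 1.38), unnamed transcripts. Their means in LPS+cordycepin were 7.07 and 8.49, against 3.70 and 5.76 in LPS+DMSO. Gm11517 was well above background on 0 of 4 arrays in DMSO and in LPS+DMSO and on 1 of 4 in cordycepin. C030010L15Rik was so on 2 of 4 arrays in DMSO and in LPS+DMSO. For the receptors the nearest were Sh2d3c (0.14) and Apobec1 (0.18, with a spread of 0.50) for Il6ra, Snx8 (0.10) and Tnip2 (0.11, with a spread of 0.37) for Il6st, and Raet1e (0.06) and Klhl5 (0.08, with a spread of 0.21) for Csf1r.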

How the data were processed

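RNA of 16 cultures was labelled with Cy3 by a kit that primes from the poly(A) tail, so the arrays report RNA with a tail, and hybridised to 1-colour Agilent arrays. The deposited scanner files hold a processed intensity per spot, which the authors obtained with Agilent Feature Extraction 10.10.1.1 (background and spatial trend subtracted, no scaling between arrays). The log2 value table deposited by the authors, normalized between arrays by a method not given in the sources used here, served as an alternative. It correlated with the scanner values at 0.995 to 0.998 on each array.

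Outlier spots, as marked by the scanner software, were dropped and the spots of each probe averaged. Arrays were scaled by the 75th percentile of the 18063 probes that passed the background test on every array, and a constant of 12.53 was added. Probes well above background on 4 arrays of a condition were kept (21597). The brightest probe stood for its gene. The 4 condition means were fitted with limma 3.58.1 in R 4.3.3 on all 16 arrays for 15877 genes, without a block for replicate or slide. On data simulated for LPS+DMSO against DMSO over 15877 genes, 199 of 200 genes changed by 2 on the log2 scale were called, with 2 false calls. This share is not specific to the members and need not hold for those with a wide spread. Il6, at -2.09 ± 0.74 with cordycepin in LPS, was not called. Python 3.11.15 (numpy 2.4.6, pandas 2.3.3, matplotlib 3.10.9) read the files.

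Groups and replicates follow the labels. The members, pathway lists and tests were chosen with earlier results of these data known. Named genes were all members, the called genes of each list (the 3 with the largest change where over 5 were called) and the 2 nearest profiles of each member. Replicate numbers pair the cultures by day. The mean correlation of residuals was 0.20 between arrays of 1 number (-0.06 to 0.44, 20 of 24 pairs over 0.1), 0.18 between other numbers on the same slide and -0.19 across slides. The day and the slide thus cannot be fully told apart. The alternatives were other scalings, background correction (normexp, offset 50), the value table, filters on dim probes, the choice of probe, blocks for replicate or slide, other models and thresholds, and leaving out each replicate or array. Probe positions are those of the files (mm9), and promoters are those of RefSeq (GRCm38.p6).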

Additional observations from a re-analysis of the deposited data

Results flagged for a closer look

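In each of the groups of 4 arrays, the gap between the highest or lowest array and its neighbour was compared with Dixon's 95% critical value over the 14 member probes, a limit that chance passes in about 1 in 20 groups, and 4 arrays passed it. Lif in LPS+DMSO replicate 2 was 6.34, with the other 3 arrays at 4.08 to 4.18, and this was the only array on which Lif was well above background. Csf3 in LPS+DMSO replicate 4 was 9.53, against 8.34 to 8.51 on the others. Osm in LPS+cordycepin replicate 2 was 9.60, against 9.10 to 9.18, and Csf1 at its brightest probe in LPS+cordycepin replicate 3 was 10.69, against 10.96 to 10.99. Without LPS+DMSO replicate 4, the fall of Csf3 with cordycepin in LPS was -1.57.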

How the results depend on the processing

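The numbers of members called were 4 with LPS, 3 with cordycepin in LPS, 1 with cordycepin, 3 with LPS in cordycepin and 0 for the difference between the LPS responses. The fit limited to probes well above background on all 16 arrays tested 4 members and called 1, 0, 0 and 0 in the first 4 comparisons. The authors' value table, which held 6 of the 8 members, called 2 with LPS. The fit of only the groups compared and the methods' t-test both called 2 with LPS and 5 with cordycepin in LPS, where Il6 and Csf1 were added. With cordycepin alone, normexp background correction called 0 and no minimum fold called 2, and quantile normalization called 1 for the difference between the responses (Csf3, not well above background without LPS). With the replicate block the counts were 4, 4, 1, 4 and 0, through Il6 and Csf1, and it changed no other call of a member. Leaving out 1 replicate or array gave 2 to 4 calls with LPS, 2 to 5 with cordycepin in LPS, 1 with cordycepin, 3 to 4 with LPS in cordycepin and 0 to 1 for the difference.

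The calls of Osm, and those of Il11 in LPS, held under all alternatives that tested them. The median over members of the range between condition means was 3.19, and it was 1.54 with normexp, 1.82 in the value table, 1.97 with no filter on dim probes (10 members), 0.88 for probes on all 16 arrays and 3.11 to 3.26 without 1 replicate. The direction turned only for differences that were not called. With cordycepin alone, leaving out replicates or arrays gave -1.21 to 0.20 for Il6, -0.34 to 0.13 for Osm, -0.36 to 0.18 for Csf3, -0.04 to 0.29 for Csf1r and -0.30 to 0.05 for Il6ra. For Csf1r it gave -0.17 to 0.17 with LPS, -0.04 to 0.03 with LPS in cordycepin and -0.20 to 0.20 for the difference, for which it gave -1.09 to 0.02 for Csf1 and -0.40 to 0.03 for Il6ra. With the percentile over all probes, Il6st was 0.02 with LPS and Csf1r -0.01 with cordycepin in LPS. Csf1r with LPS in cordycepin was 0.02 with quantile normalization, 0.01 with normexp and 0.05 in the value table, where its difference between responses was 0.02. The mean of the probes gave 0.06 for that of Csf1. Every probe on its own and without DMSO replicate 2, a fit added after the data were seen, called 5 with cordycepin in LPS and 1 for the difference. There the differences with cordycepin alone were 0.20 for Il6, 0.03 for Osm, 0.18 for Csf3 and -0.02 for Csf1r, and Csf1r was -0.15 with LPS and 0.14 for the difference between responses. The cause of these shifts was not tested.

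Over all genes, LPS called 332 raised (213 to 816 over the alternatives) and 396 lowered (148 to 1556), and cordycepin in LPS called 942 raised (342 to 1707) and 242 lowered (123 to 1344). Cordycepin alone called 713 raised (226 to 1307) and 168 lowered (91 to 1198), LPS in cordycepin 268 (143 to 562) and 194 (54 to 732), and the difference 31 (8 to 66) and 27 (3 to 49). Signal over background limits Il6, Csf3, Lif and Csf2, which were not well above background in at least 1 condition.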

Other observations

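Cntf, Il11 and Il11ra1 are the genes of the IL-6 family that cordycepin raised. After their values were seen, the next gene upstream on the same strand was looked up for each. The search covered only RefSeq genes with a promoter at hand that did not overlap the gene, so a nearer gene may have been missed. Upstream of Cntf lies Zfp91, which rose with cordycepin by 1.07 without LPS (adjusted p = 0.000344, limma) and by 1.01 with LPS (adjusted p = 0.000412, limma), from a mean level of 5.66 in DMSO to 6.72 in cordycepin. Its means without cordycepin, 5.66 in DMSO and 5.67 in LPS+DMSO, lie within 4.41 to 6.32, the range of the dimmest probes well above background. These changes may thus rest in part on signals near background. Upstream of Il11 lies Tmem238, with changes of -0.34 and 0.08, and upstream of Il11ra1 lies Galt, with changes of -0.41 and -0.30, none of which was called. Read-through between neighbours was not tested.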
